A study of Sus scrofa with 15 samples.

Results

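The complement genes that lead to the activation of C3, and the genes that hold that activation in check, were followed in kidney RNA from pigs. The members were chosen by name for their roles, with earlier results of these data known. They comprised 6 activators (C1S, C2, C3, C4A, CFB and CFD) and 4 inhibitors (SERPING1, C4BPA, CD46 and CD59), 10 genes in all. CFD, the protease that cleaves factor B, had no probe with a RefSeq accession and gave no value. The other 9 were among the 3020 genes that had a symbol on the array, and they had 23 probes of 43603, 13 for activators and 10 for inhibitors.

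All 15 animals were female Yorkshire pigs, 20 weeks old, whose left kidney had been removed 1 week before the experiment, so that each group carried a single remaining kidney. In every group the artery and vein of that kidney were clamped for 90 minutes, and kidney tissue was taken 72 hours after surgery. The control pigs (n = 5) had this ischemia and no preconditioning. The rIPCe pigs (n = 5) had remote ischemic preconditioning, 2 cycles of a 10-minute clamp on the right external iliac artery, directly before the renal ischemia. In the rIPCl pigs (n = 5) the same preconditioning preceded the ischemia by 24 hours. The control group was therefore an injured kidney, and a kidney without ischemia was not analysed here. The preconditioning and the ischemia were both on the right side, in anesthetized animals operated by laparoscopy.

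Complement is a cascade of plasma and cell-surface proteins that marks cells and microbes for removal. The classical pathway begins with C1, whose protease C1s cleaves C4 and C2, and the products form an enzyme that splits C3. In the alternative pathway factor B binds activated C3, factor D cleaves it, and the resulting enzyme splits more C3. Activated C3 leads on to C5 and to the membrane attack complex. The inhibitors act at different steps. C1 inhibitor blocks C1s, C4b-binding protein and CD46 (membrane cofactor protein) take apart or inactivate the products that split C3, and CD59 stops assembly of the membrane attack complex. Most of these proteins come from the liver, and C3 is also made by renal tubule cells and by macrophages.

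One RNA sample per pig was hybridised to a 1-colour Agilent array, and values are given as log2 of the background-corrected signal after quantile normalization over the 15 arrays, called the log2 signal. A difference of 1 is a 2-fold change. Signals of different probes were not compared with each other. Where a gene had several probes, the brightest stands for it unless another is named, and probes are numbered by brightness. Groups were compared with limma on all 43603 probes, and a probe was counted as changed at a Benjamini-Hochberg adjusted p under 0.05. Of the 23 member probes, 22 exceeded the background limit clearly on every one of the 15 arrays, and the dimmest C4A probe was so on all but 1 control array. None had an outlier or a saturated spot.

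The share of spots well above background was 62.2% to 69.5% among control arrays, 67.4% to 73.9% among rIPCe arrays and 71.8% to 74.2% among rIPCl arrays. All 11 measured proximal tubule markers of 16 listed lay above the background limit on every array. The arrays lay on 4 slides. Slide 1 held control pigs 1 to 4, slide 2 held control pig 5 and rIPCe pigs 1 to 3, slide 3 held rIPCe pigs 4 and 5 and rIPCl pig 1, and slide 4 held rIPCl pigs 2 to 5. No slide held both control and rIPCl arrays, so slide and group could be told apart only through rIPCe, and values with a term for slide are given below. Tissue was measured in bulk, in which fewer cells of a type and less RNA per cell cannot be told apart.

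Relative to the control group, C3, C2, CFB, C1S and the inhibitor SERPING1 rose in rIPCl, the membrane inhibitor CD46 fell, and C4A, C4BPA and CD59 did not pass the test. Of the 23 member probes, 13 had an adjusted p under 0.05 in limma, against 6.27% of all probes on the array. The 13 comprised 12 that were higher, against 2.69% of all probes, and 1 that was lower, against 3.58%. Counted by gene, 6 of 9 were changed, against 9.5% of the 3020 genes, with 5 higher, against 4.47%, and 1 lower, against 5.03%. None of the 13 calls held with slide as a fixed block, where 1.10% of all probes passed, or as a random block, where 0 of all probes did. Leaving out single pigs moved the number of calls over the whole array in both directions. Without rIPCl pig 1, 17 member probes passed, against 11.3% of all probes. Without control pig 5 it was 12, against 11.0%, and without control pig 1 it was 13, against 7.51%. Other pigs left out lowered it. The 13 probes became 5 without rIPCl pig 4 or rIPCl pig 5, against 0.170% and 0.112% of all probes. They became 6 without control pig 2, against 0.422%, 7 without rIPCl pig 3, against 0.603%, and 8 without control pig 3, against 1.13%. By role, 9 of the 13 activator probes rose and 0 fell, whereas 3 of the 10 inhibitor probes rose and 1 fell. Probes of a gene are not independent, and the probes that rose included all 5 of C3 and all 3 of SERPING1. By gene, 4 of 5 activators rose and 0 fell, and of 4 inhibitors 1 rose and 1 fell. The median log2 fold change was 1.11 over the 5 activators and 0.19 over the 4 inhibitors, and it was -0.02 over all genes. Over probes it was 1.11 for the 13 of activators, 0.74 for the 10 of inhibitors and -0.03 for all probes. The value for the inhibitors thus depends on which probes are taken. At a fold change of at least 2 with an unadjusted p under 0.05, 11 member probes were altered, against 5.83% of all probes, and all 11 were higher, against 3.67%. On 10 member probes all rIPCl pigs lay above all control pigs, against 2.72% of all probes, and on 1 all lay below, against 6.76%. The 10 belonged to C3, SERPING1, C1S and CFB.

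**Figure D1:**
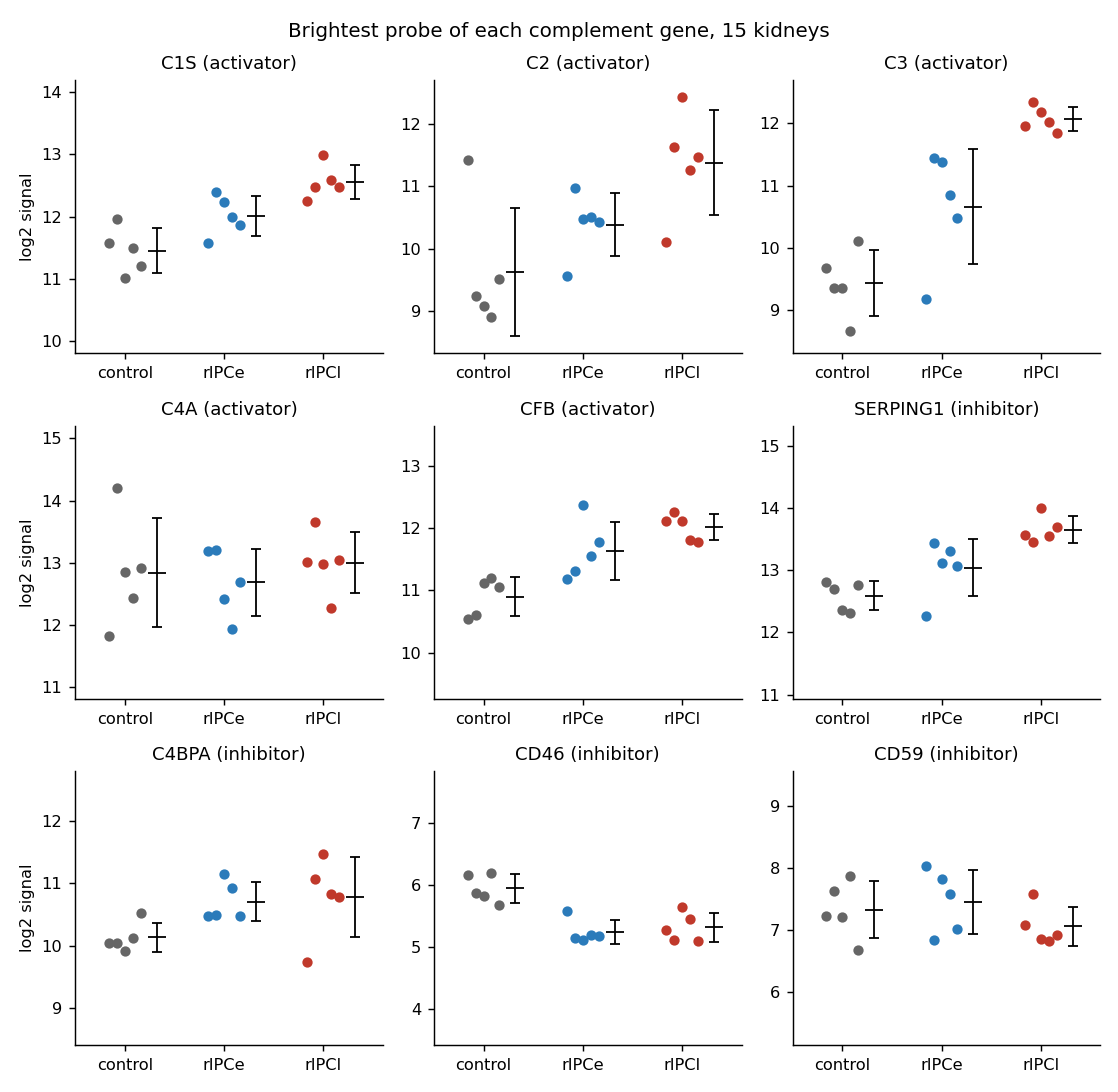
Log2 signal of the brightest probe of each of the 9 measured genes (vertical axis, the same span in each panel) in the 15 pigs, 5 per group, with each point 1 pig in order of its number and the bar the group mean ± SD. C3 and SERPING1 of the 5 rIPCl pigs lie above all control and all rIPCe pigs, and CD46 of all preconditioned pigs lies below all control pigs. Over all probes, all rIPCl pigs lie above all control pigs on 2.72% and below on 6.76%. All rIPCl pigs lie above all rIPCe pigs on 0.375%, and all rIPCe pigs below all control pigs on 2.74%.

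C3, the protein on which the pathways converge, had the largest fold change of the members. Its log2 signals in control pigs 1 to 5 were 9.68, 9.35, 9.35, 8.66 and 10.10. In rIPCe pigs 1 to 5 they were 9.18, 11.44, 11.37, 10.85 and 10.48. In rIPCl pigs 1 to 5 they were 11.95, 12.35, 12.18, 12.02 and 11.85. The rIPCl pigs were close together and all above every pig of the other groups, whereas in rIPCe pig 1 lay among the control pigs and the other 4 lay above them. The group means were 9.43 ± 0.53, 10.66 ± 0.92 and 12.07 ± 0.20 (SD, n = 5 each).

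C3 was thus 6.24-fold higher in rIPCl than in the control group, a log2 fold change of 2.64 with a standard error (SE) of 0.37 and an adjusted p of 0.0156 in limma. In an exact two-sided permutation test of the 10 pigs p was 0.00794, the smallest that 5 against 5 allows. The other 4 probes gave log2 fold changes of 2.30 to 2.69, all with an adjusted p of 0.0156. In rIPCe the log2 fold change was 1.24 (SE 0.37, adjusted p = 0.210; exact permutation p = 0.0476). Between rIPCl and rIPCe it was 1.41 (SE 0.37), with an exact permutation p of 0.00794 and an adjusted p of 0.979 over all probes. Without rIPCe pig 1 the log2 fold change in rIPCe was 1.61, with an adjusted p of 0.0264. With any 1 of the other 9 pigs left out it did not pass. It was as low as 1.04 there, with adjusted p values of up to 0.412 in limma.

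The initiating protease C1S, which cleaves C4 and C2, was 2.15-fold higher in rIPCl. Its log2 signals were 11.58, 11.96, 11.02, 11.49 and 11.21 in control pigs 1 to 5. They were 11.57, 12.40, 12.23, 12.00 and 11.86 in the rIPCe pigs and 12.24, 12.48, 12.99, 12.59 and 12.48 in the rIPCl pigs. All rIPCl pigs lay above all control pigs, and the rIPCe pigs overlapped both groups. The log2 fold change was 1.10 in rIPCl (SE 0.20, adjusted p = 0.0210) and 0.56 in rIPCe (SE 0.20, adjusted p = 0.246). The second probe gave 0.86 in rIPCl, with an adjusted p of 0.0353. Without rIPCl pig 4 or 5 the adjusted p of the brightest probe was 0.0533 or 0.0538.

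C2 provides the catalytic part of the classical enzyme that splits C3, and it lies next to CFB, with C4A close by, on pig chromosome 7 in the Sscrofa11.1 annotation. Its log2 signals were 11.43, 9.23, 9.07, 8.90 and 9.51 in control pigs 1 to 5. They were 9.56, 10.97, 10.48, 10.50 and 10.42 in the rIPCe pigs and 10.11, 11.64, 12.43, 11.26 and 11.47 in the rIPCl pigs. Control pig 1 stood among the rIPCl pigs and rIPCl pig 1 among the rIPCe pigs, so the groups overlapped. The log2 fold change in rIPCl was 1.76 (SE 0.49, adjusted p = 0.0483), the weakest of the calls. It was 2.21 without control pig 1, and the adjusted p rose above 0.05, up to 0.113, when any 1 pig other than control pig 1 and rIPCl pig 1 was left out. The dimmer probe gave 0.67, with an adjusted p of 0.105. In rIPCe the log2 fold change was 0.76 (adjusted p = 0.496).

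Factor B (CFB), the catalytic part of the alternative enzyme, was 2.16-fold higher in rIPCl. The log2 signals were 10.54, 10.60, 11.12, 11.21 and 11.05 in control pigs 1 to 5. They were 11.18, 11.31, 12.37, 11.56 and 11.77 in the rIPCe pigs and 12.11, 12.27, 12.11, 11.81 and 11.78 in the rIPCl pigs. The rIPCl pigs were all above the control pigs, and rIPCe pig 3 was the highest of all 15. On the log2 scale the change was 1.11 in rIPCl (SE 0.21, adjusted p = 0.0224) and 0.74 in rIPCe (SE 0.21, adjusted p = 0.201). Without control pig 2 the adjusted p in rIPCl was 0.0581, and without rIPCl pig 3, 4 or 5 it was 0.0547, 0.0533 or 0.0538.

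C4A, whose product joins that of C2 in the classical enzyme, had an SD of 0.88 in the control group, against 0.54 in rIPCe and 0.49 in rIPCl. Its log2 signals ranged from 11.81 in control pig 1 to 14.20 in control pig 2, with a median of 12.86. The rIPCe pigs spanned 11.94 to 13.21 and the rIPCl pigs 12.28 to 13.66. The control pigs thus spanned both other groups. The change amounted to 0.16 in rIPCl (95% confidence interval -0.69 to 1.00, adjusted p = 0.836) and -0.16 in rIPCe (adjusted p = 0.894). The second probe gave 0.16 and the dimmest -0.36 in rIPCl, and neither passed the test.

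Among the inhibitors, SERPING1, which encodes C1 inhibitor, was 2.09-fold higher in rIPCl. Its log2 signals were 12.81, 12.70, 12.37, 12.32 and 12.77 in control pigs 1 to 5. They were 12.26, 13.45, 13.12, 13.32 and 13.08 in the rIPCe pigs and 13.57, 13.46, 14.00, 13.55 and 13.70 in the rIPCl pigs. As for C3, rIPCe pig 1 lay with the control pigs and all rIPCl pigs lay above both other groups. The fold change on the log2 scale was 1.06 in rIPCl (SE 0.20, adjusted p = 0.0221) and 0.45 in rIPCe (SE 0.20, adjusted p = 0.334). The other probes gave 0.90 and 0.84 in rIPCl, with adjusted p values of 0.0234 and 0.0341. For the brightest probe the adjusted p in rIPCl was 0.0518 without control pig 2, and 0.0541, 0.0533 or 0.0538 without rIPCl pig 3, 4 or 5.

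CD46, a membrane protein that helps factor I inactivate C3b and C4b on the cell's own surface, was the member that fell. Its log2 signals were 6.15, 5.87, 5.82, 6.20 and 5.67 in control pigs 1 to 5. They were 5.58, 5.14, 5.12, 5.20 and 5.18 in the rIPCe pigs and 5.28, 5.11, 5.65, 5.46 and 5.09 in the rIPCl pigs. Every preconditioned pig lay below every control pig, the nearest being rIPCl pig 3 and control pig 5. Over all probes, all rIPCl pigs lay below all control pigs on 6.76%, and all rIPCe pigs did on 2.74%. This was a log2 change of -0.63 in rIPCl (SE 0.14, adjusted p = 0.0314). In rIPCe it was -0.70 (SE 0.14), which did not pass the adjusted test (adjusted p = 0.166; exact permutation p = 0.00794). Those 2 comparisons share the control pigs. Its adjusted p in rIPCl was 0.0571 to 0.0702 when control pig 2, 3 or 4 or rIPCl pig 2, 4 or 5 was left out. Under the methods' t-test CD46 did not pass in rIPCl (adjusted p = 0.0557). With another background correction (normexp) its change was smaller, at -0.32 (limma adjusted p = 0.0157). CD46 had 1 probe, so no second probe bears on it.

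CD59, which blocks the membrane attack complex, had log2 signals of 6.67 to 7.87 in the control group, with a median of 7.23. The rIPCe pigs spanned 6.84 to 8.03 and the rIPCl pigs 6.83 to 7.58, and all 3 groups overlapped. Its change was -0.27 in rIPCl (95% confidence interval -0.83 to 0.30, adjusted p = 0.544) and 0.13 in rIPCe (95% confidence interval -0.43 to 0.70, adjusted p = 0.858).

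C4BPA is the symbol for the alpha chain of C4b-binding protein, and its 5 probes differed in size of change. The symbol is shared by 2 RefSeq genes, and the probes carry the accession of the one also named APOR. Its place among the inhibitors thus rests on the symbol, and whether this gene's product inhibits complement was not examined. The log2 signals of the brightest probe were 10.05, 10.04, 9.92, 10.13 and 10.53 in control pigs 1 to 5. They were 10.48, 10.50, 11.16, 10.92 and 10.48 in the rIPCe pigs and 9.73, 11.07, 11.48, 10.83 and 10.79 in the rIPCl pigs. The lowest of all 15 was rIPCl pig 1, whereas the other 4 rIPCl pigs lay above all control pigs. On the log2 scale the change was 0.65 in rIPCl (SE 0.26, adjusted p = 0.138) and 0.57 in rIPCe (SE 0.26, adjusted p = 0.349). Without rIPCl pig 1 it was 0.91 in rIPCl, with an adjusted p of 0.0210. With any 1 of the other 9 pigs left out it did not pass. It was as low as 0.47 there, with adjusted p values of up to 0.289 in limma.

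C4BPA probes 2 and 5 gave larger log2 fold changes, 1.68 and 1.90 in rIPCl and 1.44 and 1.83 in rIPCe, and probe 3 gave 0.18 in both. None of the 5 probes passed the adjusted test, and for all 5 rIPCl pig 1 was the lowest rIPCl pig. On probe 5 the log2 signals were 8.17, 6.11, 6.99, 7.16 and 6.93 in control pigs 1 to 5. They were 7.59, 9.24, 9.94, 9.67 and 8.06 in the rIPCe pigs and 6.86, 8.79, 9.98, 9.96 and 9.28 in the rIPCl pigs. In both preconditioned groups pig 1 lay within the control range, and of the others 3 in rIPCe and 4 in rIPCl lay above it. For this gene the probes do not give 1 size of change, whereas the 5 probes of C3 moved alike in every pig.

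**Figure D2:**
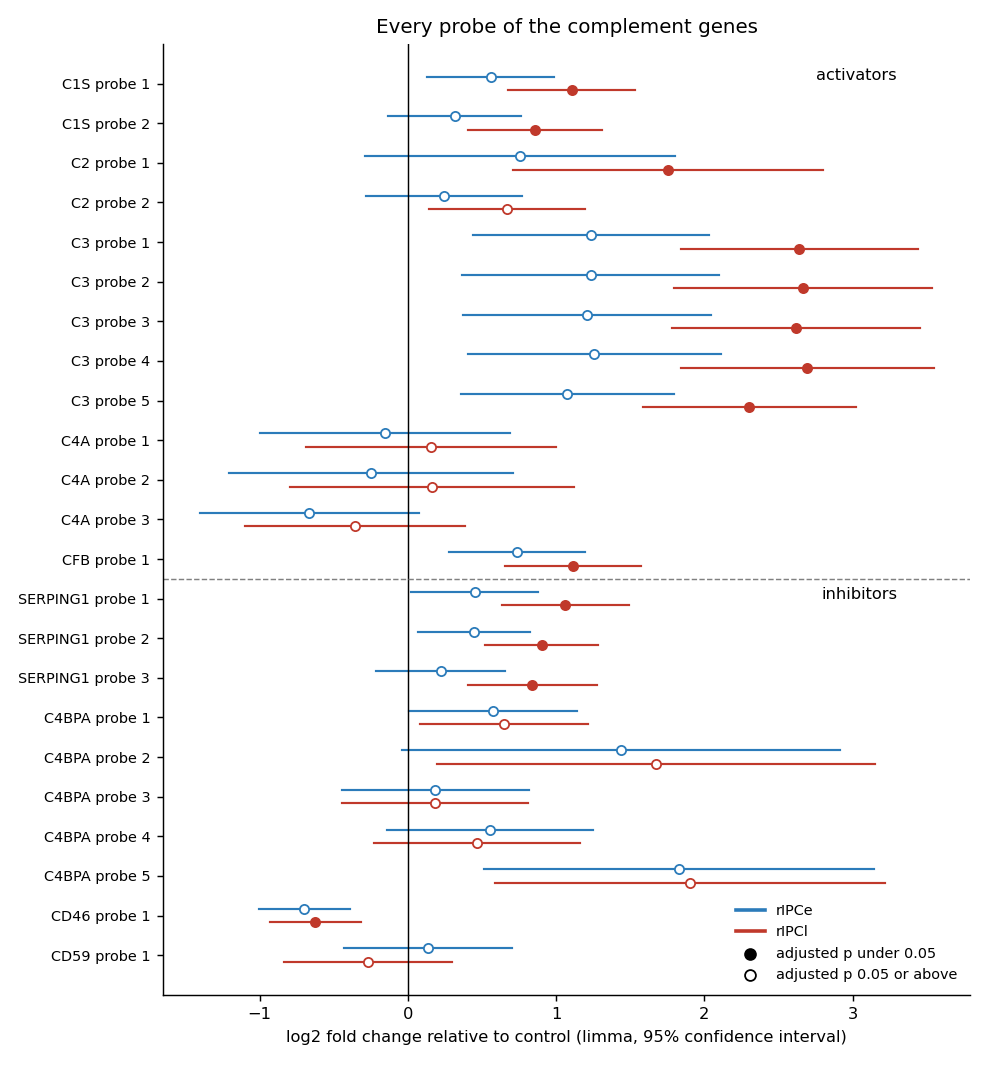
Log2 fold change relative to the control group (horizontal axis) with its 95% confidence interval from limma for the 23 probes, activators above the dashed line and inhibitors below, rIPCe in blue and rIPCl in red, with probes numbered by brightness within a gene. Filled points, an adjusted p under 0.05, occur in rIPCl on 13 probes and in rIPCe on 0.

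**Figure D3:**
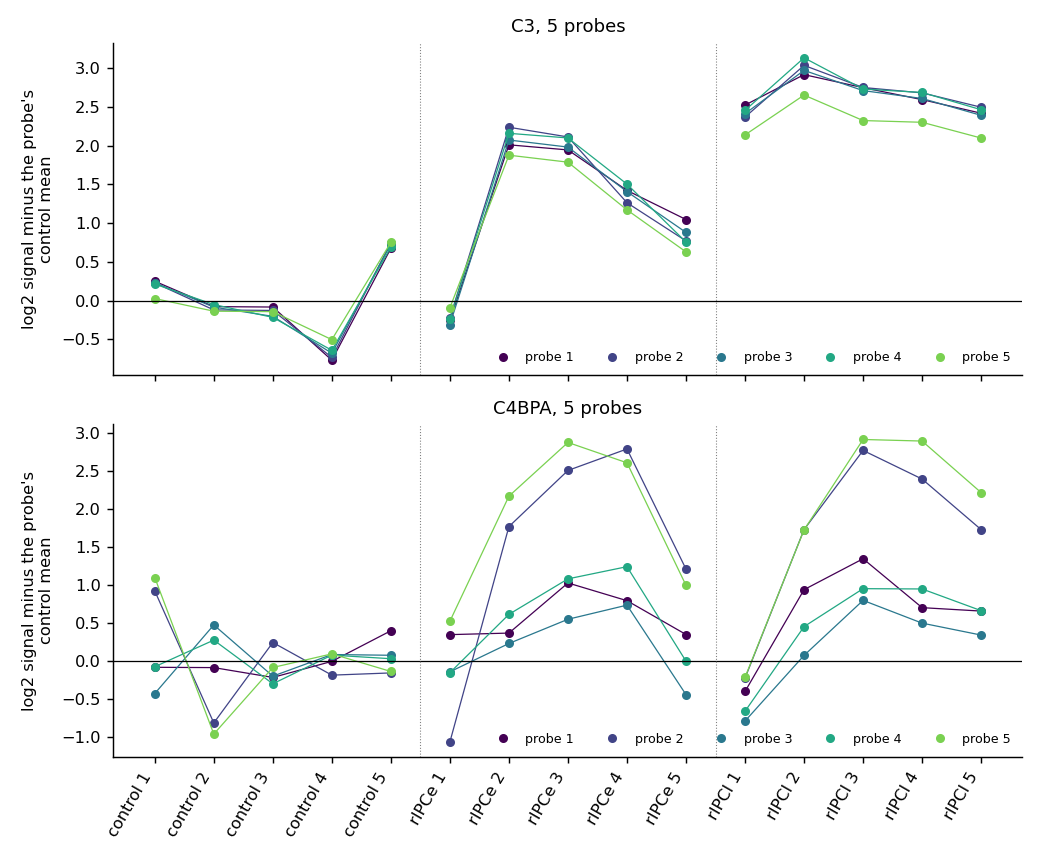
Log2 signal of each of the 5 probes of C3 (upper panel) and of C4BPA (lower panel) minus the probe's own control mean, by pig. The C3 probes lie close together in every pig, whereas in rIPCe pigs 2 to 5 and rIPCl pigs 2 to 5 C4BPA probes 2 and 5 lie above the other 3.

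In rIPCe none of the 23 member probes passed the adjusted test in limma, against 0.00229% of all probes, which is 1 probe on the array. At an unadjusted p under 0.05 there were 12, against 14.1% of all probes. With a fold change of at least 2 as well, 6 remained, against 2.18%, and these were the 5 probes of C3 and C4BPA probe 5. The median log2 fold change was 0.74 over the activators and 0.29 over the inhibitors, and -0.03 over all genes. Over probes it was 0.74 for activators, 0.45 for inhibitors and -0.01 for all probes. For CD46 alone all rIPCe pigs lay below all control pigs, which held for 2.74% of all probes, and for 0 member probes did all lie above, against 0.571%. Without rIPCe pig 1, 6 member probes passed the adjusted test, against 0.612% of all probes, 5 of them higher and 1 lower. With any other pig left out, 0 member probes passed.

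The direct comparison of rIPCl with rIPCe asks whether these groups differed, but the window between preconditioning and ischemia was not their only difference. In rIPCl the preconditioning was a separate procedure on the day before the ischemia, so more time passed between preconditioning and tissue. Slide differed too, since most rIPCl arrays lay on a slide without rIPCe arrays. The effect of the window alone was therefore not tested. No member probe and no other probe passed the adjusted test in limma (0% of all probes), and 10 member probes had an unadjusted p under 0.05, against 3.85%. By the methods' t-test 9 had an unadjusted p under 0.05, against 4.23% of all probes, and 0 an adjusted one, against 2 probes on the array. All 10 in limma were higher in rIPCl, against 2.26% of all probes. The 5 probes of C3 also changed by at least 2-fold, against 0.525%. For these 5 and the brightest SERPING1 probe all rIPCl pigs lay above all rIPCe pigs, against 0.375% of all probes. The log2 fold change of SERPING1 was 0.61 (SE 0.20; exact permutation p = 0.00794, adjusted p = 0.979). For CD46 it was 0.07 (95% confidence interval -0.24 to 0.38) and for C4BPA 0.07 (95% confidence interval -0.50 to 0.64).

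To set C3 against inhibition within each kidney, the log2 signal of each inhibitor was subtracted from that of C3 in the same pig. The differences were then compared between groups. C3 alone stood for the activators, so the values for all inhibitors share its signals. Only the change between groups carries meaning, since the signals of 2 probes have no common scale. In rIPCl C3 rose by 1.58 more than SERPING1, by 1.99 more than C4BPA, by 2.91 more than CD59 and by 3.27 more than CD46 on the log2 scale. For each inhibitor all 5 rIPCl pigs lay above all 5 control pigs (exact two-sided permutation p = 0.00794, adjusted over the 8 values p = 0.0159). C3 by itself had already separated these groups at the same permutation p. A gene that changed little would therefore give a like result, and the passes are not separate evidence on each inhibitor. The share of all genes for which C3 gives such a result was not computed. SERPING1 thus rose less than C3, although it rose. The other activators were not set against the inhibitors in this way. In rIPCl C1S and CFB rose by 1.10 and 1.11, near the 1.06 of SERPING1, while C2 gave 1.76 and C4A 0.16.

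In rIPCe the corresponding values were 0.78 for SERPING1 (4 of 5 pigs above all control pigs, exact permutation p = 0.0238, adjusted p = 0.0317) and 1.93 for CD46 (4 of 5, exact permutation p = 0.0159, adjusted p = 0.0254). Those for C4BPA, 0.66 (4 of 5, exact permutation p = 0.175, adjusted p = 0.175), and CD59, 1.10 (3 of 5, exact permutation p = 0.151, adjusted p = 0.172), did not pass the test. These calls moved with single pigs. The adjusted p values for SERPING1 and CD46 rose above 0.05, up to 0.0635, when any 1 of 8 of the 10 pigs was left out. Without rIPCe pig 1 the values for C4BPA and CD59 passed, at 0.98 (adjusted p = 0.0106) and 1.62 (adjusted p = 0.0238). With any other pig left out neither passed. In rIPCl all 4 values passed with each pig left out in turn, at adjusted p values of no more than 0.0254. Leaving out pigs does not address slide, since no slide held both control and rIPCl arrays. With slide as a fixed block these values had no test. C3 relative to CD59 and CD46 then gave 1.17 and 2.15 in rIPCl, and relative to C4BPA 2.64.

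**Figure D4:**
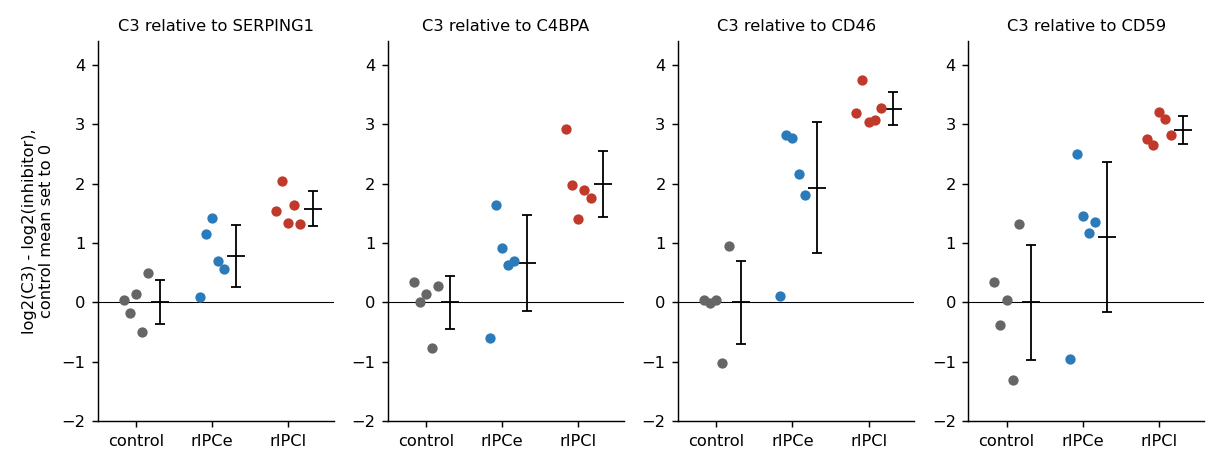
Log2 signal of C3 minus that of each of the 4 inhibitors in the same pig, with the control mean set to 0 (vertical axis, the same in each panel), as points for 5 pigs per group and a bar for the mean ± SD. All rIPCl pigs lie above all control pigs in every panel, and rIPCe pig 1, the leftmost rIPCe point, lies within the control range.

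With slide as a fixed block in the model no member probe passed the adjusted test in rIPCl, against 1.10% of all probes, and 0 had an unadjusted p under 0.05, against 13.0%. The log2 fold change of C3 was then 1.85 (95% confidence interval -0.47 to 4.17, adjusted p = 0.496), that of C1S 1.17 and that of CFB 1.01. Those of C2 and SERPING1 were 0.48 and 0.55, CD46 gave -0.30, and C4BPA turned to -0.79. With slide as a random block C3 gave 2.52 and 13 member probes had an unadjusted p under 0.05, against 14.4% of all probes, and 0 of all 43603 probes passed the adjusted test. With these arrays the effects of slide and group could be told apart only in part, and the intervals with the block were wide.

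Within slide 2 the 3 rIPCe pigs were higher than the 1 control pig by 0.56 for C3, 0.86 for C1S, 0.83 for C2 and 0.57 for CFB on the log2 scale, and lower for CD46 at -0.39. The other inhibitors were higher there too, by 0.89 for CD59 and by 0.18 each for SERPING1 and C4BPA, and C4A differed by 0.025. Within slide 3 the 1 rIPCl pig was higher than the 2 rIPCe pigs by 1.29 for C3, 0.70 for C4A, 0.44 for CFB, 0.37 for SERPING1, 0.31 for C1S and 0.089 for CD46, whereas C2 gave -0.35, C4BPA -0.97 and CD59 -0.21. These within-slide differences rest on 1 pig on one side and have no test.

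**Figure D5:**
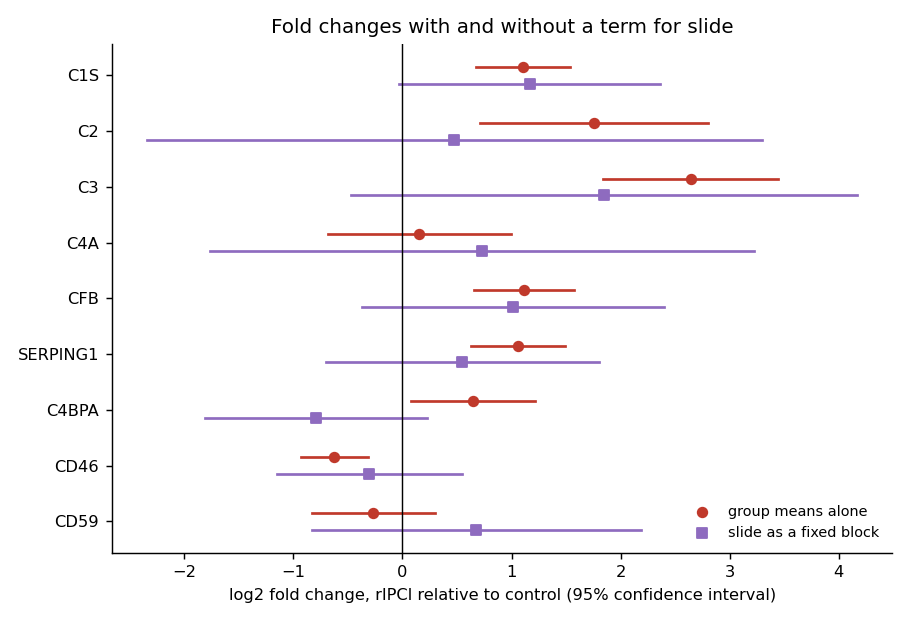
Log2 fold change of rIPCl relative to the control group (horizontal axis) with its 95% confidence interval for the brightest probe of the 9 genes, from group means alone (red circles) and with slide as a fixed block (purple squares). The intervals with the block all include 0, and the estimates for C1S and CFB move least while C4BPA and CD59 change sign.

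The remaining genes of the pathway showed how far the change extended. Of 38 further complement genes listed, 23 had a probe, and in rIPCl 7 rose and 1 fell at an adjusted p under 0.05 in limma, against 4.47% and 5.03% of the 3020 genes. Their median over the 23 was 0.90 on the log2 scale. Those that rose included the 3 chains of C1q, the subunit of C1 that binds targets, with 1.65 for C1QA, 1.55 for C1QB and 1.45 for C1QC. Clusterin (CLU), which binds the membrane attack complex in fluid, rose by 2.02. The terminal components C5 and C7 rose by 0.90 each, C5 at an adjusted p just under the threshold, and C9, the pore-forming component, fell by 0.95. CD55, a membrane inhibitor of the enzymes that split C3, had a log2 fold change of -0.23 (adjusted p = 0.580). Each of the 8 calls in rIPCl was lost when any 1 of 5 to 9 of the 10 pigs was left out, at adjusted p values of up to 0.102 in limma, and with slide or replicate number as a block. The methods' t-test ended those of C1QA, C1QB, C1QC, C7 and CLU, at adjusted p values of 0.0532 to 0.0624. In rIPCe 0 of the 23 passed the adjusted test and 5 were higher and 1 lower at an unadjusted p under 0.05, against 5.99% and 10.1% of genes, with a median of 0.41.

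Markers of other cells moved beside these genes. Of 5 measured macrophage markers of 9 listed, 4 had a positive log2 fold change in rIPCl and 1 rose, MRC1 by 1.01 (adjusted p = 0.0244), with a median of 0.90. Their mean log2 signal spanned 9.80 to 11.26 among control pigs, 10.27 to 11.12 among rIPCe pigs and 10.54 to 11.47 among rIPCl pigs, and all 5 were above the background limit on every array. Control pig 1, the highest control pig for C2, was also the highest control pig for the macrophage markers, and rIPCl pig 1 was the lowest rIPCl pig for them. This was not particular to macrophages. Control pig 1 was also the highest control pig for the T and NK cell, neutrophil and endothelium markers. In rIPCl, pig 1 was also the lowest for the T and NK cell and B cell markers. All 7 measured T and NK cell markers of 10 were higher in rIPCl, with a median of 1.34 and 0 passing the adjusted test. Their mean log2 signal spanned 5.72 to 7.29 among control pigs, 5.65 to 7.47 among rIPCe pigs and 6.34 to 8.97 among rIPCl pigs. Of 7 fibroblast markers 4 were measured, and all 4 had a positive log2 fold change in rIPCl, with a median of 0.93. LUM, which encodes the matrix protein lumican, rose by 1.49 (adjusted p = 0.0450), and DCN, for decorin, gave 0.96 (adjusted p = 0.0709). The mean log2 signal of the 4 spanned 12.28 to 12.86 among control pigs, 12.54 to 13.85 among rIPCe pigs and 12.63 to 13.89 among rIPCl pigs. Of 3 measured B cell markers of 4 listed, CD79A rose by 1.23 (adjusted p = 0.0407), and the median was 0.33. None of the measured markers of neutrophils, endothelium and distal nephron (3 each) or of podocytes (1) passed limma's adjusted test in rIPCl, and 0 had an unadjusted p under 0.05. Of the 11 proximal tubule markers, 2 fell and 1 had a positive value, with a median of -0.87, and their mean log2 signal spanned 12.77 to 13.84 among control pigs, 12.50 to 13.41 among rIPCe pigs and 12.08 to 13.35 among rIPCl pigs. Of 6 hepatocyte markers 5 were measured, 0 passed the adjusted test, and SERPINA1 was not well above background on any array. TTR (transthyretin) gave -3.39 (adjusted p = 0.0569) and TF (transferrin) -2.78 (adjusted p = 0.0916), ALB 0.03 and APOA1 0.19. The mean log2 signal of the hepatocyte markers spanned 8.09 to 9.35 among control pigs, 7.41 to 8.72 among rIPCe pigs and 6.83 to 8.58 among rIPCl pigs. Of the 3020 genes 4.47% rose and 5.03% fell in rIPCl. With slide as a random block 0 of all probes passed, so none of these marker calls held there. LUM was read from the brightest of its 9 probes, and the markers were not followed with single pigs left out. The part of these cells in the complement changes was not tested.

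The genes whose pattern over the 15 pigs lay nearest to that of C3 were found by the root mean square difference of log2 signals, each gene centred on its own mean, over 2575 genes. Among the nearest were MGP, the matrix Gla protein (0.52), SERPINF1 (0.65), C1QB (0.65) and BIRC5, a protein of dividing cells (0.66). Of the members, SERPING1 took place 21 in this order, C2 place 29, C1S place 45 and CFB place 74. C4BPA came at place 264, and C4A, CD59 and CD46 at places 1644, 2198 and 2292. This order describes the 15 arrays and carries no test.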

How the data were processed

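The authors extracted total RNA from 15 kidneys, hybridised it to porcine 1-colour arrays and scanned them. Intensities were read from the scans with the Agilent Feature Extraction 11.0.1.1 software. The deposited intensities are linear, corrected for background in each array and without normalization between arrays. A second deposited file holds the same processed signals averaged for each of the 43603 probes. Here control spots and outlier spots (1 to 70 per array) were left out, and intensities were transformed to log2, quantile normalized over 15 arrays and averaged per probe. Precision is limited by the number of arrays. Probes were named through RefSeq accessions (6686 probes, 3020 genes).

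Group means were fitted with limma 3.58.1 (lmFit, eBayes; R 4.3.3) over all probes, and p values were adjusted by Benjamini-Hochberg over all probes. Files were read with the R package data.table (version 1.17.8). Exact permutation tests considered all 252 assignments of 10 arrays and were two-sided. The authors' methods name an independent t-test, which was run as an alternative. The others were scaling to the 75th percentile, the normexp correction (offset 50), the deposited averages, outlier spots kept, dim probes left out, only the 10 arrays compared, replicate number or slide as a block, eBayes with trend and robust, array weights, a gene's probes averaged, and each array left out. The script was tested on simulated data. The members and the gene lists were chosen with earlier results of these data known. Every member and every probe was named, with other complement genes that passed the adjusted test in rIPCl and the 5 genes nearest to C3, except items that are not reported here. A search of promoters for motifs was not run, and sequences were not used here.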

Additional observations from a re-analysis of the deposited data

Results flagged for a closer look

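Each of the 23 probes was examined in the 3 groups of 5 for a pig that stood apart, by the gap to its nearest neighbour over the range of the group. Of these 69 groups 2 passed the 95% limit of Dixon's ratio (0.71), where chance passes about 1 in 20. The log2 signal of C2 was 11.43 in control pig 1, and the next control pig had 9.51 (ratio 0.759). The log2 signal of CD46 was 5.58 in rIPCe pig 1, the highest of that group, and the next had 5.20 (ratio 0.834).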

How the results depend on the processing

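Of the 23 member probes, 13 passed the adjusted test in rIPCl relative to the control group. This number was 10 to 17 under the alternatives of scaling, background correction (normexp, chosen after the data had been examined), filter, arrays fitted, moderation, weights, t-test and replicate block. The share of all probes moved with it, from 6.27% to 23.0% with array weights (17 member probes), 17.7% with the 75th percentile (14), 3.55% under the t-test (10) and 2.26% with the replicate block (10). It was 0 with slide as a fixed or as a random block, 5 to 17 with 1 pig left out, 6 without control pig 2, 8 without control pig 3, 7 without rIPCl pig 3, and 5 without rIPCl pig 4 or rIPCl pig 5. In rIPCe it was 0 to 6 with 1 pig left out, 6 being without rIPCe pig 1, and in rIPCl relative to rIPCe it was 0 with each pig left out. At a fold change of at least 2 with an unadjusted p it was 6 in rIPCe and 5 in rIPCl relative to rIPCe. C3 passed in rIPCl with every pig left out in turn, at 2.45 to 2.81. C1S lost its call without 1 of 2 pigs, CFB and SERPING1 without 1 of 4, CD46 without 1 of 6 and C2 without 1 of 8. C2 also lost it under normexp, with only the 10 arrays compared, with the replicate block, under the t-test and as the mean of its probes, and CD46 under the t-test. Under normexp the log2 fold change of CD46 in rIPCl was smaller, at -0.32 (limma adjusted p = 0.0157). C4BPA passed with array weights. Scaling to the 75th percentile moved the median of all probes in rIPCl to -0.11.

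With slide as a fixed block the direction turned for C4BPA (-0.79) and CD59 (0.68) in rIPCl, for C4A (0.025) in rIPCe, and for C2 (-0.35) and C4BPA (-0.97) in rIPCl relative to rIPCe, where a random block gave C4BPA -0.12. In that fixed fit C3 relative to C4BPA, CD46 and CD59 gave 2.64, 2.15 and 1.17 in rIPCl, and relative to CD46 and CD59 it gave 0.95 and -0.33 in rIPCe. As the mean of its probes C4A gave -0.013 in rIPCl. In rIPCe, C3 relative to SERPING1 no longer passed under normexp (0.66) and with the mean of all probes (0.83), nor did C3 relative to CD46 under normexp (1.43). The causes were not tested.

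With 1 pig left out, C4A ranged from -0.10 to 0.49 in rIPCl and from -0.41 to 0.18 in rIPCe, and CD59 from -0.030 to 0.29 in rIPCe. In rIPCl relative to rIPCe, C4BPA ranged from -0.10 to 0.33 and CD46 from -0.0096 to 0.16. In rIPCe, C3 ranged from 0.63 to 0.96 relative to SERPING1, from 0.41 to 0.98 relative to C4BPA, from 1.68 to 2.39 relative to CD46 and from 0.75 to 1.62 relative to CD59.

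The groups share replicate numbers, and the pairing was checked. Deviations of same-numbered pigs from their group means correlated between -0.266 and 0.0732, 0 of 15 pairs above 0.1, so the numbers do not pair the pigs. With the replicate block 10 member probes passed in rIPCl, against 13 without it, and C1QA, C1QB, C1QC, C5, C7, C9 and CLU did not pass. Normexp on the mean signal was not run, since the median signal was used in its place. The number of arrays and the signal over background limit what could be seen, most for the dimmest C4A probe.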
